A study of Drosophila melanogaster with 8 samples.

Results

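The genes described here encode the proteins of the cytosolic ribosome of Drosophila melanogaster, measured in the heads of late pupae that lost or overproduced the fly TDP-43 protein. Of the 15141 gene symbols counted, 87 had the symbol form of a large-subunit, small-subunit or stalk protein or were sta or sop, the stubarista and string of pearls genes of the small subunit. Of these, 84 had at least 20 counts summed over the 8 libraries and make up the set: 45 large-subunit genes, 35 small-subunit genes, the 3 stalk genes RpLP0, RpLP1 and RpLP2, and RpL22-like. The 3 symbols under that minimum were RpL37b with 5 counts, RpS10a with 11 and RpS28a with 10, and the lowest gene above it was RpL10Aa with 28. The symbol form missed the ribosomal protein genes oho23B and Qm, whose current names are RpS21 and RpL10, and they are given apart.

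The libraries came from 4 genotypes, with 2 libraries each, and each library was total RNA of 150 pooled heads taken between 73 and 90 hours after puparium formation. Deficiency animals were dTDP-43-delta142/Df(2R)106, and 2-deletion animals were dTDP-43-delta23/delta142, so both loss-of-function genotypes carried the delta142 allele. Gain-of-function animals were act5c>dTDP-43, in which the broadly active act5c promoter drives the transgene. Wild-type animals were w1118 by genotype, with Canton S also named in the title. The extent of Df(2R)106, the transgene and the genetic background of the mutant stocks are not described in the sources used here. Whether the pair of libraries of a genotype stem from independent animals is not stated, so a p-value here reflects library-to-library spread that may be technical. Total counts were 858067 and 929745 in deficiency, 1160738 and 1302855 in 2-deletion, 1225179 and 1105353 in gain-of-function, against 868003 and 716027 in wild-type libraries.

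The cytosolic ribosome makes every protein encoded in the nucleus. Its small subunit reads the messenger RNA, its large subunit joins the amino acids, and the stalk, in which RpLP0 anchors the acidic proteins RpLP1 and RpLP2, binds the translation factors that use GTP. The subunits are built from fixed proportions of proteins, and in flies the loss of 1 copy of many of these genes gives the Minute phenotype of slow development and thin bristles. Several of the proteins are encoded by a pair of genes, of which the second is often used mainly in testis or ovary. TDP-43 is a nuclear RNA-binding protein linked to amyotrophic lateral sclerosis, and TBPH is its fly gene.

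TBPH itself did not separate the genotypes. It had 48.8 and 30.4 CPM (counts scaled to a common library size with TMM) in deficiency, 39.7 and 43.6 in 2-deletion, 54.5 and 38.4 in gain-of-function, against 49.1 and 56.4 in wild-type libraries. The log2 difference from wild type was -0.42 ± 0.31 (SE) in deficiency, -0.34 ± 0.30 in 2-deletion and -0.18 ± 0.30 in gain-of-function heads, and edgeR's quasi-likelihood test called none of them. A count over the whole gene does not test for a partial deletion. That count showed no rise in gain-of-function heads, and the transgene is not described, so the genotypes rest on the labels. The 5 neuronal markers elav, n-syb, brp, para and fne were detected in every library, elav between 86.1 and 159.6 CPM.

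Ribosomal protein genes made up between 2.95% and 4.05% of the counts in a library. They took 3.52% and 3.84% of counts in deficiency, 2.95% and 3.33% in 2-deletion, 3.59% and 3.01% in gain-of-function, against 3.68% and 4.05% in wild-type libraries. The group means were 3.68% ± 0.22 in deficiency, 3.14% ± 0.27 in 2-deletion, 3.30% ± 0.41 in gain-of-function, against 3.87% ± 0.26 in wild-type heads (SD, n = 2 each). Both 2-deletion libraries and both gain-of-function libraries lay below both wild-type libraries, whereas the deficiency libraries overlapped them. With small RNA and other noncoding genes left out by symbol, gain-of-function replicate 1 had 4.15% and wild-type replicate 1 had 4.13%. The gain-of-function libraries then overlapped the wild-type ones, and the 2-deletion libraries, at 3.42% and 3.87%, still lay below them. On the shares of all counts, the exact two-sided permutation test gave p = 0.667 for deficiency, 0.333 for 2-deletion and 0.333 for gain of function against wild type, and 0.333 is the smallest p that 2 against 2 libraries allow. With the 4 loss-of-function libraries set against the 2 wild-type ones, p was 0.267 by the same exact test, where 0.0667 is the smallest possible. In such bulk samples fewer cells with high ribosome production and less of these RNAs per cell cannot be told apart.

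The balance of the subunits was level across the libraries. The ratio of large-subunit to small-subunit counts was 1.22 and 1.26 in deficiency, 1.23 and 1.26 in 2-deletion, 1.30 and 1.21 in gain-of-function, against 1.23 and 1.33 in wild-type libraries, with overlap between all groups. Stalk genes took 7.28% and 6.84% of the ribosomal protein counts in deficiency, 7.45% and 6.60% in 2-deletion, 6.73% and 7.97% in gain-of-function, against 7.06% and 6.44% in wild-type libraries, again with overlap.

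**Figure D1:**
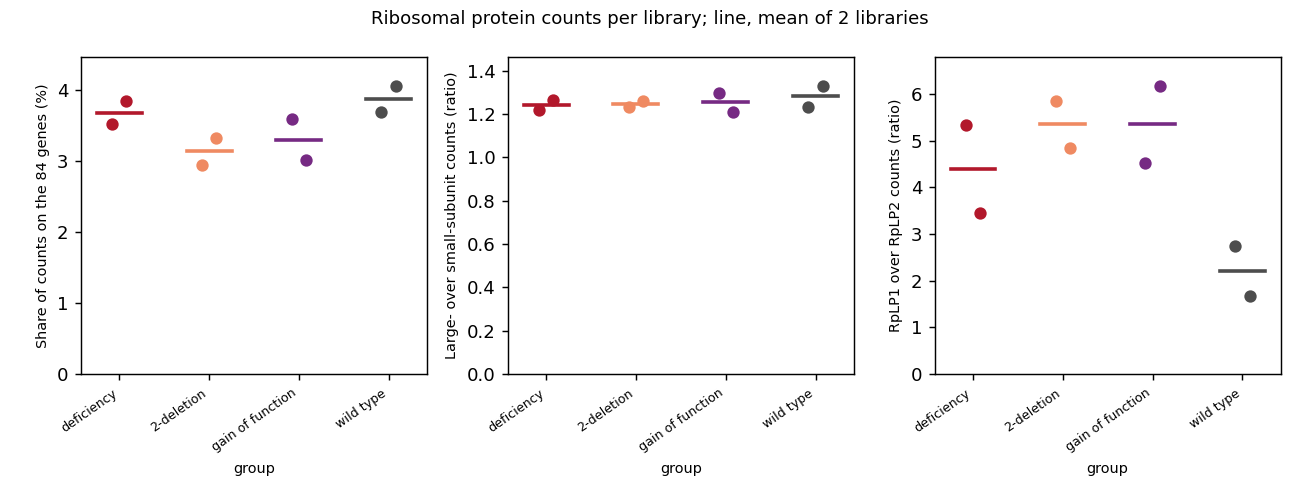
Share of all counts on the 84 ribosomal protein genes (left, percent), ratio of large-subunit to small-subunit counts (middle) and ratio of RpLP1 to RpLP2 counts (right), by group; each point is a library and each line the mean of 2 libraries. The lowest shares are 2.95% in 2-deletion replicate 1 and 3.01% in gain-of-function replicate 2, the subunit ratio overlaps between all groups, and the RpLP1 to RpLP2 ratio is 1.67 and 2.74 in wild-type libraries and 3.44 or more in each of the others.

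Per kilobase of exon, taken from a later annotation than the one counted, the genes differed widely in level. RpL41, the smallest ribosomal protein, led with a mean of 2240.5 CPM per kilobase over the 8 libraries. RpLP1 followed with 1980.4, then RpL15 with 1674, RpS29 with 1308, RpS18 with 1206 and RpL36 with 1204 CPM per kilobase. The median gene of the set had 337 CPM before the correction for length. At the bottom, 6 genes had a mean CPM under 10% of that median: RpS14b, RpL22-like, RpS19b, RpS15Ab, RpS5b and RpL10Aa, at 28.2, 8.49, 8.88, 8.40, 5.27 and 4.81 CPM per kilobase. The next gene up was RpL34a with 74.8 CPM per kilobase.

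Of the 84 genes, 81 had enough counts to be tested, and RpL10Aa, RpS15Ab and RpS5b did not. A gene is called below where edgeR's quasi-likelihood test gave a Benjamini-Hochberg adjusted p under 0.05 over the 9252 genes tested. The 3 comparisons with wild type share the same 2 wild-type libraries and so are not independent of each other.

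Most ribosomal protein genes had slightly lower values in 2-deletion and gain-of-function heads than in wild-type heads, and few of these differences passed the test. Against wild type, the median log2 difference of the 81 genes was -0.06 in deficiency, -0.36 in 2-deletion and -0.32 in gain-of-function heads, beside a median of 0.01 over all genes tested in each of the 3 comparisons. The difference was below 0 for 54 of the 81 genes in deficiency, 76 in 2-deletion and 73 in gain-of-function heads. Over all genes tested, 49.4%, 49.6% and 49% were below 0 in those comparisons. Large-subunit and small-subunit genes had nearly the same medians. Without the low-level genes, the median of the 44 large-subunit genes was -0.05 in deficiency, -0.36 in 2-deletion and -0.32 in gain-of-function heads. That of the 31 small-subunit genes was -0.06, -0.36 and -0.31 in the same comparisons, and that of the 3 stalk genes was -0.13, -0.26 and -0.23.

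In deficiency and in gain of function, the 2 libraries of the group differed by an amount close to the group's median difference from wild type. The 2-deletion libraries differed by less than the 2-deletion median. The median log2 difference between replicate 2 and replicate 1, over the 78 genes that were not at low level, was 0.07 in deficiency, 0.19 in 2-deletion, -0.29 in gain-of-function, against 0.16 in wild-type libraries. In gain of function, only 12 of the 78 genes were higher in replicate 2, and in 2-deletion 71 were. Leaving out gain-of-function replicate 1 moved the median of that comparison to -0.50, and leaving out replicate 2 moved it to -0.18. Leaving out 2-deletion replicate 1 moved the 2-deletion median to -0.22.

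**Figure D2:**
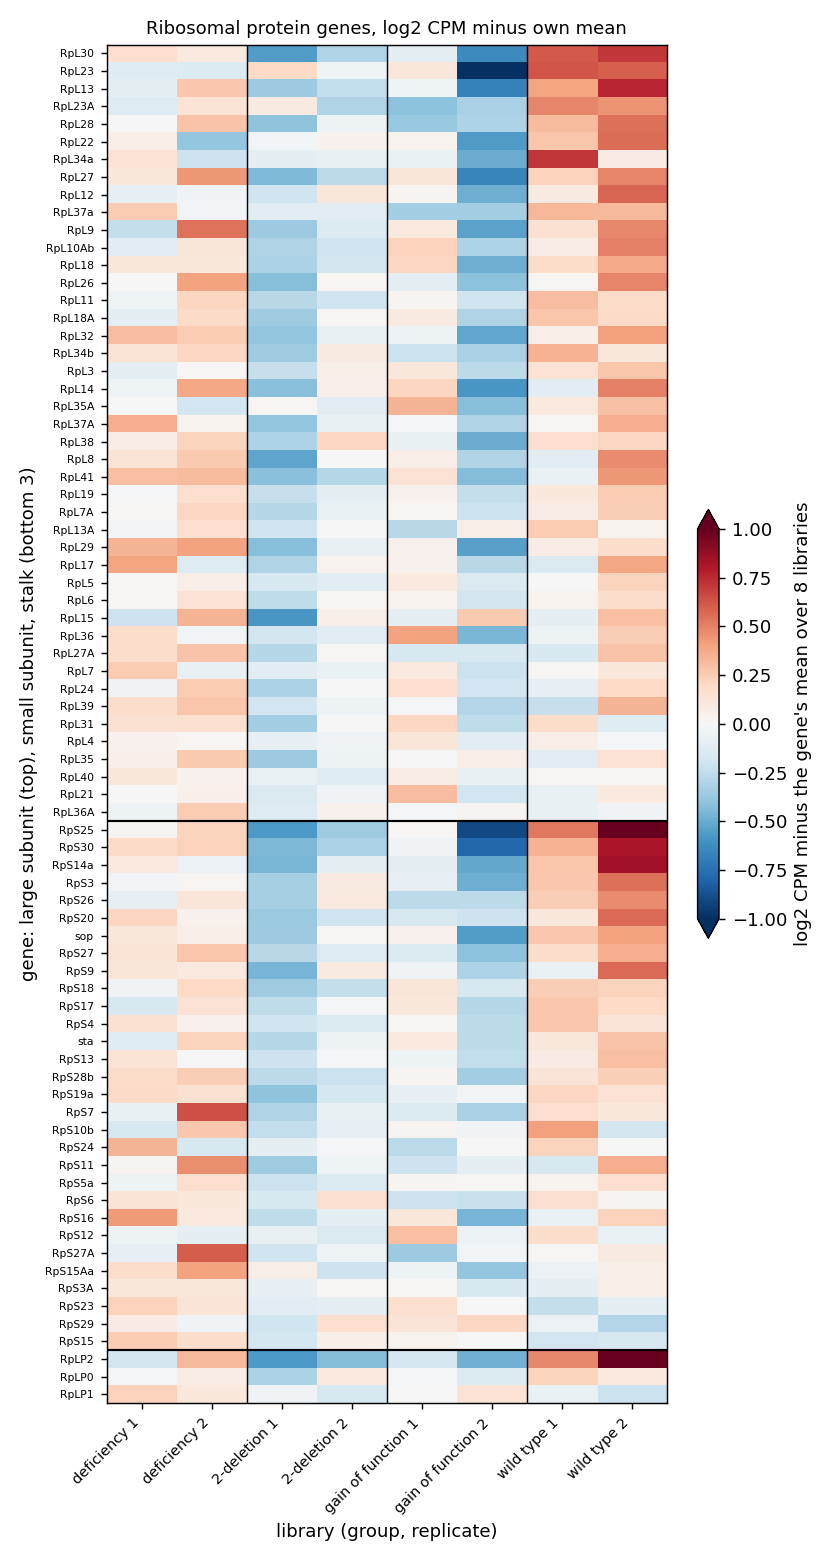
Level of ribosomal protein genes that were not at low level, in each of the 8 libraries, as log2 CPM minus the gene's own mean over the libraries (color, limited to 1 on either side of 0). Genes are grouped into large subunit, small subunit and stalk and run, within each, from the lowest to the highest level in the 6 mutant libraries relative to the wild-type ones; RpL30, RpS25 and RpLP2 stand at the top of their groups, most rows are bluest in 2-deletion replicate 1 and gain-of-function replicate 2, and the red of wild type is deepest in replicate 2.

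The test called 0 of the 81 genes in deficiency heads, as did DESeq2 and limma-voom, 2 in 2-deletion heads, RpL30 and RpLP2, and 3 in gain-of-function heads, RpL23A, RpL30 and RpLP2. All of these were lower than in wild type. Over all genes tested, 1.11% were called lower in deficiency, 0.584% in 2-deletion and 2.19% in gain-of-function heads, and 0.562%, 0.249% and 0.919% were called higher. The mean of both loss-of-function genotypes against wild type called the same pair, RpL30 and RpLP2, lower, where 1.58% of all genes were called lower and 0.616% higher. No ribosomal protein gene was called higher in any of these comparisons.

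At an unadjusted p under 0.05, 7 of the 81 genes were lower and 1, RpS15, was higher in deficiency heads, where 10.1% and 7.33% of all genes were. In 2-deletion heads 25 of the 81 were lower and 0 higher, where 8.59% and 7.21% of all genes were, and in gain-of-function heads 22 were lower and 0 higher, where 11% and 8.55% of all genes were. For the mean of both loss-of-function genotypes 16 were lower and 0 higher, where 11.8% and 8.12% of all genes were, and 73 of the 81 log2 differences were below 0, where 49.8% of all genes were. Both libraries lay below both wild-type libraries for 24 genes in deficiency, 58 in 2-deletion and 48 in gain-of-function heads. Over all genes tested, that held for 25.1%, 26.3% and 24.9%. The 24 genes of deficiency heads were thus near the share of all genes, and the 58 of 2-deletion and 48 of gain-of-function heads were above it. Both libraries lay above both wild-type libraries for 8 genes in deficiency, 0 in 2-deletion and 5 in gain-of-function heads, where 24.5%, 26.3% and 24.4% of all genes did, so that each of these counts was below the share of all genes. All 4 loss-of-function libraries lay below both wild-type libraries for 23 genes and above them for 0, where 16.1% and 15.1% of all genes did.

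**Figure D3:**
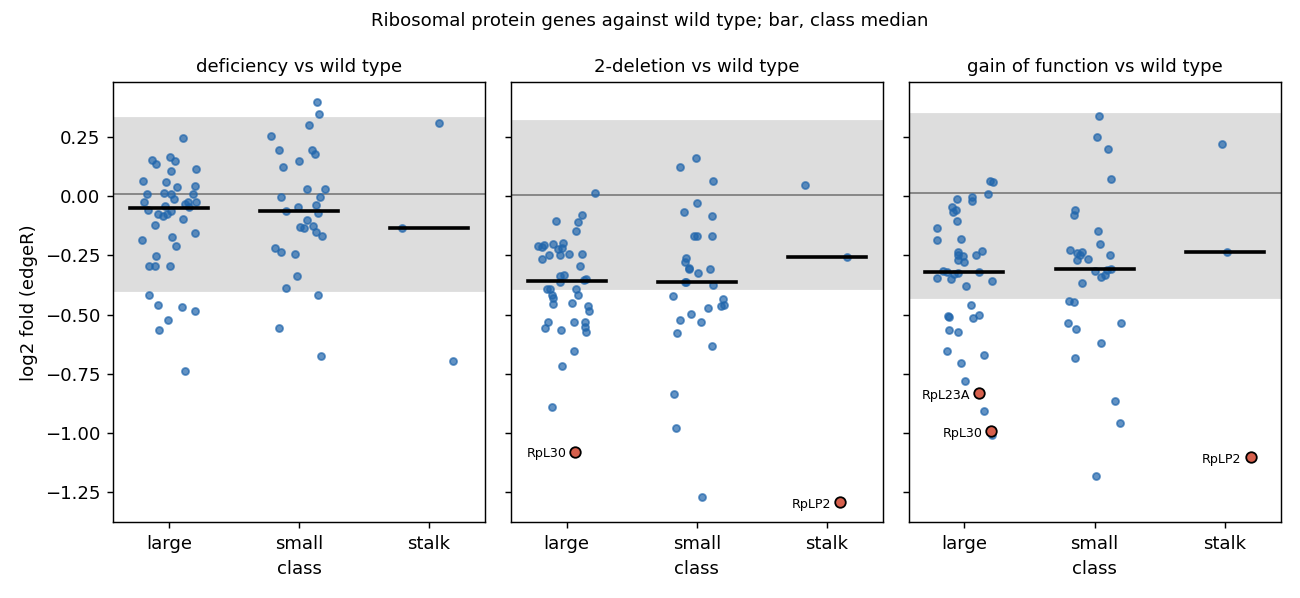
The log2 difference from wild type of the 78 genes that were not at low level, by class, in deficiency, 2-deletion and gain-of-function heads; each point is a gene, each black bar the median of its class, and the grey band spans the lower to the upper quartile of all genes tested around their median line. Red points are the called genes, RpL30 and RpLP2 in 2-deletion heads and RpL23A, RpL30 and RpLP2 in gain-of-function heads, and the large and small classes have nearly the same median within each panel.

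Among the stalk genes, RpLP2 was called lower and its partner RpLP1 was not called. RpLP2 had 332 and 472 CPM in deficiency, 253 and 279 in 2-deletion, 336 and 271 in gain-of-function, against 528 and 777 in wild-type libraries. All 6 mutant libraries lay below both wild-type libraries. The log2 difference from wild type was -1.29 ± 0.23 (SE) in 2-deletion heads, with an adjusted p of 0.037 from edgeR's quasi-likelihood test, and -1.10 ± 0.23 in gain-of-function heads, with an adjusted p of 0.030. In deficiency heads it was -0.70 ± 0.23 and did not pass, with an adjusted p of 0.15 by the same test. Deficiency and 2-deletion heads differed by 0.60 ± 0.23, which did not pass either, with an adjusted p of 0.46 from edgeR.

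RpLP1, which pairs with RpLP2 in the stalk, had 1771 and 1626 CPM in deficiency, 1479 and 1353 in 2-deletion, 1519 and 1673 in gain-of-function, against 1444 and 1301 in wild-type libraries. Both deficiency and both gain-of-function libraries lay above the wild-type ones, and the 2-deletion libraries overlapped them. The log2 difference was 0.31 (95% interval -0.10 to 0.72) in deficiency, 0.05 (-0.37 to 0.46) in 2-deletion and 0.22 (-0.19 to 0.63) in gain-of-function heads. RpLP0, the anchor of the stalk, had 513 and 550 CPM in deficiency, 419 and 557 in 2-deletion, 516 and 475 in gain-of-function, against 608 and 559 in wild-type libraries, every mutant library being below both wild-type ones, with 2-deletion replicate 2 the closest to them. Its log2 difference was -0.13 in deficiency, -0.26 in 2-deletion and -0.23 in gain-of-function heads, and none was called.

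The ratio of RpLP1 to RpLP2 counts within a library was 5.33 and 3.44 in deficiency, 5.84 and 4.85 in 2-deletion, 4.53 and 6.17 in gain-of-function, against 2.74 and 1.67 in wild-type libraries. The ratio of RpLP0 to RpLP2 counts was 1.54 and 1.16 in deficiency, 1.66 and 1.99 in 2-deletion, 1.54 and 1.75 in gain-of-function, against 1.15 and 0.719 in wild-type libraries. Both ratios were higher in every mutant library than in either wild-type library, and the 2 wild-type libraries differed from each other by more than 1 unit in the first ratio. These ratios were chosen after the values of the genes were seen, are not corrected for length and were not tested.

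RpL30, a large-subunit protein that in Saccharomyces cerevisiae limits its own synthesis by binding its own transcript, had 144 and 137 CPM in deficiency, 86.9 and 104 in 2-deletion, 120.1 and 82.2 in gain-of-function, against 195 and 209 in wild-type libraries. The 2 wild-type libraries were the highest and the groups did not overlap with them. RpL30 fell by 1.08 ± 0.22 on the log2 scale in 2-deletion heads, with an adjusted p of 0.043 from edgeR's quasi-likelihood test, and by 0.99 ± 0.21 in gain-of-function heads, with an adjusted p of 0.032. In deficiency heads the log2 difference was -0.52 ± 0.21, with an adjusted p of 0.23 by the same test. The mean of both loss-of-function genotypes was lower by 0.80 ± 0.18 on the log2 scale for RpL30 and by 0.99 ± 0.19 for RpLP2, with adjusted p of 0.047 and 0.031 from edgeR. The exons of RpL30 overlap those of CG31793 on the opposite strand in the later annotation, and whether the counting used the strand is not stated, so reads of that gene cannot be told apart from its own.

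RpL23A, whose protein lies at the exit of the large subunit's peptide tunnel, had 141 and 169 CPM in deficiency, 164 and 125 in 2-deletion, 116 and 123 in gain-of-function, against 216 and 210.2 in wild-type libraries. All mutant libraries were lower than the wild-type ones, and the gain-of-function libraries were the lowest. It fell by 0.83 ± 0.20 on the log2 scale in gain-of-function heads, with an adjusted p of 0.043 from edgeR's quasi-likelihood test. The log2 difference was -0.46 in deficiency and -0.56 in 2-deletion heads, with adjusted p of 0.25 and 0.19 from edgeR. RpL23A overlaps Uhg7 and a small nucleolar RNA on its own strand and CG7974 on the other, so its counts may hold reads of those genes.

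The 3 calls depended on which libraries were in the fit. Without either wild-type library, or without either 2-deletion library, 0 ribosomal protein genes were called in any comparison with wild type, while RpLP2 kept a log2 difference between -1.34 and -0.78 in gain-of-function heads and between -1.54 and -0.98 in 2-deletion heads over all alternatives. DESeq2's Wald test called RpLP2 and RpS25 in gain-of-function heads and did not call RpL30 (adjusted p = 0.078) or RpL23A (adjusted p = 0.16), whose adjusted p over the alternatives ranged between 0.0088 and 0.22 for RpL30 and between 0.027 and 0.22 for RpL23A.

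**Figure D4:**
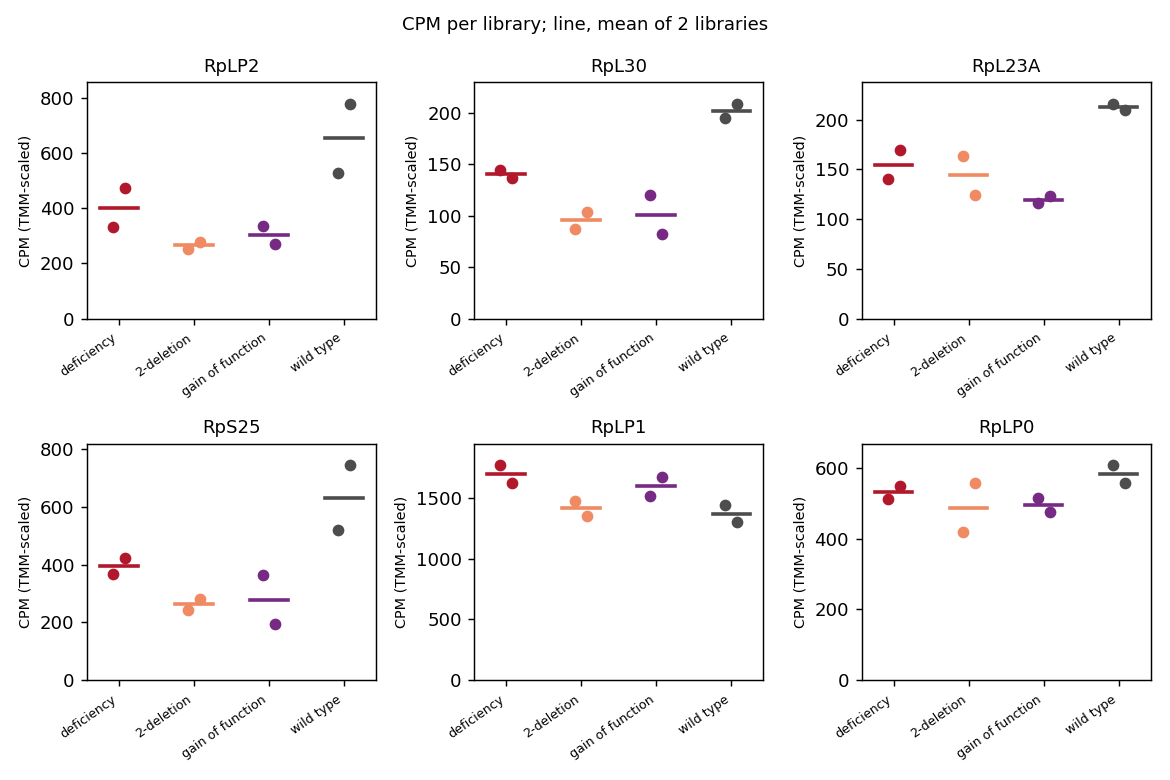
CPM of RpLP2, RpL30, RpL23A, RpS25, RpLP1 and RpLP0 in each library by group, with each line the mean of 2 libraries and every axis starting at 0. The wild-type libraries are the highest for RpLP2, RpL30, RpL23A and RpS25, while RpLP1 is at 1444 and 1301 CPM in wild type and at or above 1353 CPM in the mutant libraries.

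Among the small-subunit genes of the set, none was called, and RpS25 had the values furthest from wild type among those whose mean log2 CPM reached 5. The gene oho23B, which encodes RpS21 and lies outside the set, was called lower in gain-of-function heads and is given below. RpS25, a protein of the small-subunit head that is needed for translation from several internal ribosome entry sites, had 369 and 422 CPM in deficiency, 242 and 282 in 2-deletion, 364 and 194 in gain-of-function, against 521 and 745 in wild-type libraries. Its wild-type libraries were the 2 highest, and they differed from each other by more than the 2-deletion libraries did. The log2 difference was -0.68 ± 0.28 in deficiency, -1.27 ± 0.28 in 2-deletion and -1.18 ± 0.28 in gain-of-function heads. The adjusted p from edgeR was 0.24, 0.072 and 0.051, and without the filter on low counts it was 0.032 in 2-deletion and 0.030 in gain-of-function heads. Over the alternatives, the adjusted p ranged between 0.00073 and 0.39 in 2-deletion heads and between 0.0027 and 0.31 in gain-of-function heads.

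Other genes of both subunits were lower in every mutant library than in both wild-type ones and were not called. RpS30, made as a fusion with a ubiquitin-like protein, had 230 and 236 CPM in deficiency, 148 and 161 in 2-deletion, 196 and 117 in gain-of-function, against 256 and 354 in wild-type libraries. RpL13 had 188 and 241 CPM in deficiency, 155 and 168 in 2-deletion, 195 and 125 in gain-of-function, against 263 and 339 in wild-type libraries. For both genes the 2-deletion libraries lay below the deficiency ones, and the adjusted p from edgeR was 0.055 for each in gain-of-function heads. RpL23 had 98.9 and 97.7 CPM in deficiency, 123 and 104 in 2-deletion, 116 and 45.7 in gain-of-function, against 166 and 162 in wild-type libraries. Its deficiency libraries, unlike those of RpS30 and RpL13, lay below the 2-deletion ones, gain-of-function replicate 2 was the lowest, and its exons overlap those of inaD, an eye gene on the opposite strand, in the later annotation.

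Besides RpLP1, the genes with the highest values relative to wild type were RpS15, RpS23 and RpS29 of the small subunit. RpS15 had 627 and 592 CPM in deficiency, 465 and 545 in 2-deletion, 537 and 527 in gain-of-function, against 458 and 468 in wild-type libraries. RpS23, which helps set the accuracy of decoding, had 1048 and 975 CPM in deficiency, 830.3 and 835 in 2-deletion, 998 and 895 in gain-of-function, against 755 and 838 in wild-type libraries. RpS29 had 1388 and 1276 CPM in deficiency, 1137 and 1467 in 2-deletion, 1430.2 and 1513 in gain-of-function, against 1258 and 1069 in wild-type libraries. For all 3 genes the deficiency and gain-of-function libraries lay above the wild-type ones and the 2-deletion libraries overlapped them. No difference passed the test, and the highest log2 value of each gene was 0.40 for RpS15 and 0.35 for RpS23, both in deficiency heads, and 0.34 for RpS29 in gain-of-function heads, with adjusted p of 0.26, 0.35 and 0.39 from edgeR.

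Of the small-subunit genes with older names, sta, which encodes RpSA, had 507 and 643 CPM in deficiency, 453 and 531 in 2-deletion, 589 and 459 in gain-of-function, against 595 and 670.1 in wild-type libraries. The deficiency libraries overlapped the wild-type ones, and the other 4 mutant libraries lay below them. Its log2 difference was -0.14 in deficiency, -0.36 in 2-deletion and -0.27 in gain-of-function heads, and none was called. The gene sop, which encodes RpS2, had 357 and 346 CPM in deficiency, 257 and 334 in 2-deletion, 341 and 225 in gain-of-function, against 398 and 437 in wild-type libraries. All mutant libraries of sop were below the wild-type ones, and its log2 difference of -0.25, -0.50 and -0.56 in the same order was not called.

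In all, 21 of the 81 tested genes had every one of the 6 mutant libraries below both wild-type libraries, where 12.5% of all genes tested did, and 0 had every one above, where 11.7% did. The 21 were 9 large-subunit genes, 9 small-subunit genes, RpLP0, RpLP2 and RpL22-like. They included RpL3, a large-subunit protein that reaches towards the peptidyl transferase center, with 629 and 679 CPM in deficiency, 573 and 699 in 2-deletion, 723 and 562 in gain-of-function, against 743 and 817 in wild-type libraries. RpS3, which also has a role in DNA repair, was among them with 434 and 450 CPM in deficiency, 351 and 470 in 2-deletion, 419 and 316 in gain-of-function, against 532 and 649 in wild-type libraries. Neither RpL3 nor RpS3 was called in any comparison.

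The genes encoding RpL5 and RpL11, which bind the 5S ribosomal RNA before it joins the large subunit, were not called in any comparison. RpL5 had 1575 and 1634 CPM in deficiency, 1397 and 1452 in 2-deletion, 1672 and 1408 in gain-of-function, against 1564 and 1817 in wild-type libraries. RpL11 had 276 and 330.1 CPM in deficiency, 235 and 248 in 2-deletion, 291 and 248 in gain-of-function, against 352 and 323 in wild-type libraries. The lowest values of both genes were in 2-deletion replicate 1. RpL40 and RpS27A, each made as a fusion with ubiquitin, differed from wild type by a log2 value of -0.01 and -0.24 in gain-of-function heads and were not called.

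Most ribosomal protein genes had slightly higher values in deficiency heads than in 2-deletion heads, without a call. Set against 2-deletion heads, the median log2 difference of the 81 genes in deficiency heads was 0.27, beside 0.01 over all genes tested. It was below 0 for 6 of the 81 genes, where 49.1% of all genes were below 0, and both deficiency libraries lay above both 2-deletion libraries for 49 of the 81 and below them for 1, where 20.7% and 22.3% of all genes did. No gene of the whole table was called by edgeR in that comparison, which is 0% in either direction, DESeq2 and limma-voom called 0 of the ribosomal protein genes as well, and at an unadjusted p under 0.05 the ribosomal protein genes gave 12 higher and 0 lower, where 4.1% and 5.32% of all genes were. Among them, RpL41 had 862 and 872 CPM in deficiency heads and 522 and 575 in 2-deletion heads, with a log2 difference of 0.66. RpS7 had 556 and 915 CPM in deficiency heads and 474 and 555 in 2-deletion heads, with a log2 difference of 0.52, and its deficiency libraries were far apart.

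The mean of both loss-of-function genotypes set against gain of function gave a median log2 difference of 0.11 over the 81 genes, beside -0.01 over all genes tested, and edgeR called 0 of them and 0% of all genes in either direction, with 0 of them called by DESeq2 and by limma-voom too. The difference was below 0 for 20 of the 81, where 51.7% of all genes were. At an unadjusted p under 0.05, 1 of the 81 was higher and 0 lower, where 2.96% and 2.52% of all genes were. All 4 loss-of-function libraries lay above both gain-of-function libraries for 3 genes and below them for 0, where 6.2% and 5.46% of all genes did. The sign of this median rested on the gain-of-function library used, being 0.25 without gain-of-function replicate 1 and -0.059 without replicate 2.

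The low-level genes are the weakly read partners of well-read ones. RpS14b had 28.2 CPM per kilobase beside 133 for RpS14a, with which it shares its protein sequence, so that reads could have been split or lost between them. RpL22-like had 8.49 CPM per kilobase beside 278 for RpL22, RpS19b 8.88 beside 263 for RpS19a, and RpS15Ab 8.40 beside 87.0 for RpS15Aa. RpS5b, which is used mainly in the ovary, had 5.27 CPM per kilobase beside 642 for RpS5a, and RpL10Aa had 4.81 beside 442 for RpL10Ab. The germline markers vas, nos, bam, aly and osk had between 0 and 11 counts in every library and were not tested.

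RpS14b had 17.9 and 19.5 CPM in deficiency, 7.59 and 9.95 in 2-deletion, 22.4 and 9.13 in gain-of-function, against 29.7 and 18.3 in wild-type libraries. The 2-deletion libraries lay below the wild-type ones, with a log2 difference of -1.45 ± 0.49 and an adjusted p of 0.18 from edgeR. RpS14a had 120.3 and 108 CPM in deficiency, 81.9 and 106 in 2-deletion, 105 and 78.6 in gain-of-function, against 136 and 200.3 in wild-type libraries, with all mutant libraries below the wild-type ones and no call. RpL22-like, a paralogue used mainly in testis, had 2.38 and 13.0 CPM in deficiency, 6.75 and 9.18 in 2-deletion, 2.40 and 12.8 in gain-of-function, against 16.0 and 21.2 in wild-type libraries. All 6 mutant libraries were below the wild-type ones, and the log2 difference was -1.22 ± 0.75 in deficiency, -1.19 ± 0.71 in 2-deletion and -1.31 ± 0.73 in gain-of-function heads, none of them called. RpL22 itself had 312 and 228 CPM in deficiency, 292 and 306 in 2-deletion, 306 and 201 in gain-of-function, against 361 and 437 in wild-type libraries, also with all mutant libraries below.

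RpS19b had 4.77 and 1.09 CPM in deficiency, 3.38 and 6.12 in 2-deletion, 4.0 and 6.39 in gain-of-function, against 10.3 and 11.3 in wild-type libraries. Its wild-type libraries were the highest, yet they rest on 9 and 8 counts. Summed over the 2 libraries of a group, RpL10Aa had 5 counts in deficiency, 7 in 2-deletion, 4 in gain-of-function, against 12 in wild-type heads. RpS15Ab had 11, 12, 15 and 11 counts in the same order, and RpS5b had 3, 9, 16 and 12. In each library 3 counts correspond to between 2.30 and 4.23 CPM, so differences among these genes were at the limit of the depth.

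**Figure D5:**
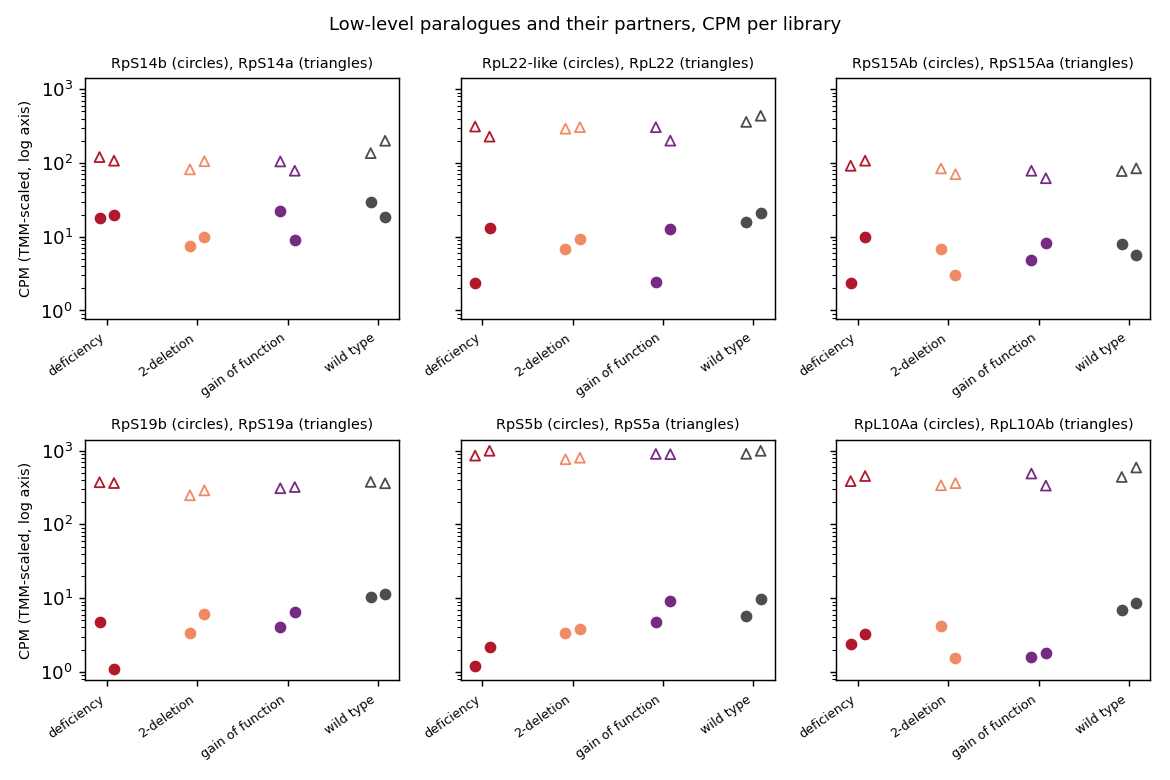
CPM per library on a log axis for the 6 low-level genes (filled circles) and their partners (open triangles), by group. The partners lie above the low-level genes in every library; RpS14b is the closest pair, at 7.59 and 9.95 CPM in the 2-deletion libraries beside 81.9 and 106 CPM for RpS14a.

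The other pairs had a partner with a moderate level or under the count minimum. RpL34a had 74.8 CPM per kilobase and RpL34b 131. Their log2 difference from wild type was -0.70 and -0.51 in gain-of-function heads, and neither was called. The partners of the 3 genes under the minimum, RpS10b, RpS28b and RpL37a, had 202, 423 and 226 CPM per kilobase. RpL37a, whose symbol differs from that of RpL37A by case alone, had a log2 difference of -0.67 with an adjusted p of 0.054 in gain-of-function heads from edgeR, and RpL37A one of -0.35 with an adjusted p of 0.38.

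The genes were also split by gene structure and position, taken from the later annotation. Among the 78 genes that were not at low level, 28 carry a small nucleolar RNA in an intron and 50 do not. The median log2 difference in 2-deletion heads was -0.33 for the carriers and -0.38 for the others, and in gain-of-function heads it was -0.27 and -0.32. The 28 genes whose exons overlap another gene had medians of -0.38 in 2-deletion and -0.33 in gain-of-function heads, and the 50 without overlap had -0.35 and -0.29. By chromosome, the median in gain-of-function heads was -0.24 for 16 genes on 2L, -0.27 for 17 on 2R, -0.32 for 13 on 3L, -0.50 for 17 on 3R and -0.25 for 14 on X, while RpS3A, the gene on chromosome 4, had -0.06. In 2-deletion heads the medians were -0.23 on 2L, -0.34 on 2R, -0.44 on 3L, -0.46 on 3R and -0.32 on X. These medians are descriptions and were not tested against each other.

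The ribosomal protein genes nearest to TBPH on chromosome arm 2R were RpL12 and RpL39, with 63 and 64 protein-coding genes between them and TBPH, and RpL12 and RpL39 overlap each other on opposite strands. RpL12, part of the base on which the stalk stands, had 368 and 379 CPM in deficiency, 338 and 420.04 in 2-deletion, 397 and 277 in gain-of-function, against 414 and 584 in wild-type libraries. RpL39, which lines the peptide tunnel, had 323 and 346 CPM in deficiency, 250 and 275 in 2-deletion, 282 and 233 in gain-of-function, against 243 and 363 in wild-type libraries. RpL12 had a log2 difference of -0.42 (95% interval -0.91 to 0.08) in deficiency heads and RpL39 one of 0.15 (-0.31 to 0.60), and neither was called.

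Of the ribosomal protein genes that the symbol form missed, oho23B, which encodes RpS21, had 655 and 825 CPM in deficiency, 462 and 635 in 2-deletion, 564 and 505 in gain-of-function, against 899 and 1206 in wild-type libraries. All mutant libraries lay below the wild-type ones. It fell by 0.98 ± 0.22 on the log2 scale in gain-of-function heads, with an adjusted p of 0.039 from edgeR, and its log2 difference was -0.51 in deficiency and -0.94 in 2-deletion heads, with adjusted p of 0.26 and 0.077. Qm, which encodes RpL10, had log2 differences of 0.06, -0.12 and -0.11 in deficiency, 2-deletion and gain-of-function heads and was not called.

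Genes of the wider translation machinery had median differences near 0. Of 29 translation factor genes, 0 were called by edgeR in any comparison with wild type. Over all genes tested, 1.11%, 0.584% and 2.19% were called lower in deficiency, 2-deletion and gain-of-function heads. Those called higher were 0.562%, 0.249% and 0.919%, so 0 of 29 was near these shares. The median log2 difference of the 29 genes was 0.04 in deficiency, -0.04 in 2-deletion and 0.06 in gain-of-function heads. At an unadjusted p under 0.05, 3 of the 29 genes were lower in deficiency, 3 in 2-deletion and 4 in gain-of-function heads. Over all genes tested, 10.1%, 8.59% and 11% were. Rack1 and Ef1alpha100E were among the lower ones in each comparison. Their log2 differences were -0.47, -0.56 and -0.52 for Rack1 and -0.50, -0.45 and -0.79 for Ef1alpha100E. By the same threshold 1 gene, eIF-4B, was higher in deficiency heads, where 7.33% of all genes were. In 2-deletion and gain-of-function heads 0 were higher. Of 23 genes of ribosome biogenesis, 20 were tested, with medians of 0.01, -0.11 and -0.10 in the same comparisons. The nucleolar gene mod (modulo) was called lower in gain-of-function heads, at 86.5 and 85.9 CPM, against 170.2 and 141 CPM in wild-type heads, with an adjusted p of 0.042 from edgeR. It was 1 of the 20 tested genes of that list, where 2.19% of all genes were called lower. The gene dm, the fly Myc that drives ribosome production, had 94.1 and 82.5 CPM in deficiency, 96.2 and 91.0 in 2-deletion, 72.1 and 93.2 in gain-of-function, against 44.6 and 55.0 in wild-type libraries. All 6 mutant libraries of dm lay above the wild-type ones, with log2 differences of 0.83, 0.92 and 0.73 and adjusted p of 0.10, 0.099 and 0.12 from edgeR, so it was not called.

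Marker genes of several cell types also differed between the genotypes. The 6 muscle markers Mhc, Act57B, up, Mlc2, Tm2 and Act88F were all detected and summed to 7401 and 11030.3 CPM in deficiency, 5043 and 5145 in 2-deletion, 1840.1 and 4589 in gain-of-function, against 12684 and 19127 in wild-type libraries. In gain-of-function heads 4 of the 6 were called lower, where 2.19% of all genes were. In 2-deletion heads 0 of the 6 were called, where 0.584% of all genes were called lower. At an unadjusted p under 0.05 all 6 were lower in 2-deletion heads, where 8.59% of all genes were. In deficiency heads 0 were called and 0 passed the unadjusted threshold. The muscle sums were lower than in wild type in all 3 mutant genotypes, and lowest in gain of function. The 5 photoreceptor markers ninaE, trp, norpA, ninaC and Arr2 summed to 399 and 835 CPM in deficiency, 307 and 341 in 2-deletion, 200.2 and 306 in gain-of-function, against 795 and 649 in wild-type libraries. Most of the wild-type photoreceptor sum came from trp and ninaC, and ninaC was called lower in gain-of-function heads (adjusted p = 0.036 from edgeR). The marker norpA went the other way in 2-deletion heads, with 128 and 109 CPM against 94.8 and 95.9 CPM in wild-type heads, and ninaE had a log2 difference of 1.47 in deficiency heads, neither of them called. The 5 neuronal markers summed to 644 and 561 CPM in deficiency, 539 and 454 in 2-deletion, 388 and 535 in gain-of-function, against 556 and 545 in wild-type libraries. Of these 5, para, a sodium channel gene, was called lower in gain-of-function heads, at 44.0 and 53.0 CPM, against 122 and 116 CPM in wild-type heads (adjusted p = 0.012 from edgeR). In the same heads the log2 difference was -1.07 for n-syb, -0.19 for brp, 0.02 for fne and 0.33 for elav, none of them called. The 4 glial markers repo, nrv2, Eaat1 and moody summed to 349 and 359 CPM in deficiency, 289 and 292 in 2-deletion, 268 and 291 in gain-of-function, against 324 and 347 in wild-type libraries, and none was called. Of the 4 fat body markers, Fbp1 and Lsp1beta were tested and Lsp2 had at most 1.60 CPM. Together they summed to between 20405 and 30601 CPM in deficiency, 14976 and 16910.2 in 2-deletion, 19022 and 25063 in gain-of-function, against 12042 and 13866 in wild-type libraries. Every mutant library was above both wild-type ones in the fat body sum, and the 2-deletion libraries were below those of the other 2 mutant genotypes. Most of that sum came from Fbp1. Lsp1beta had 1600 and 3477 CPM in deficiency, 3715 and 3531 in 2-deletion, 1357 and 4139 in gain-of-function, against 1976 and 1837 in wild-type libraries. Its deficiency and gain-of-function libraries thus lay on both sides of the wild-type ones. Neither Fbp1 nor Lsp1beta was called against wild type. Genes of small RNAs were taken by symbol, a form that also takes in ribosomal RNA symbols and other noncoding genes named by a CR number. They took 16.03% and 11.5% of counts in deficiency, 13.7% and 14.1% in 2-deletion, 13.6% and 14.7% in gain-of-function, against 10.8% and 12.1% in wild-type libraries. The part of muscle, eye, neuronal, glial and fat body content, and of small RNA content, in the values of the ribosomal protein genes was not tested.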

How the data were processed

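Gene expression was measured in 8 libraries made from total head RNA of late pupae, with ribosomal RNA removed and sequencing on the SOLiD platform, per the labels' protocols. The authors deposited 1 table of whole-number counts per library, made with HTSeq on the dm3 build per the submitters' processing notes; the aligner, annotation, strand setting and handling of reads with several matches: not given in the sources used here. Groups were taken from the titles. Genes were kept by filterByExpr (minimum count 10, minimum total 15), scaled by TMM and fitted in 1 model with 4 group means over all 8 libraries with edgeR 4.0.16 in R 4.3.3 (robust quasi-likelihood test, Benjamini-Hochberg adjustment over 9252 genes, threshold 0.05; common biological coefficient of variation 20.7%). Standard errors are the log2 difference divided by the square root of F; intervals are 95%. Alternatives were DESeq2 1.42.0, limma 3.58.1 voom, other scalings, filters and fits, and each library left out. The procedure was also run on simulated data, with changes put into the gain-of-function group alone. Those changes were larger than the median differences given here, so the run does not cover differences of that size.

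The members, gene lists and classes were chosen with earlier results of these data known, so no test was made over the list. Named genes were every called member, the 3 highest and 3 lowest members of each comparison with wild type at a mean log2 CPM of at least 5, the stalk genes, sta and sop, the low-level genes (mean CPM under 10% of the median member) with their partners, and the members nearest TBPH. Other genes (RpL3, RpS3, RpL5, RpL11, RpL13, RpS30, RpL40, RpS27A, RpL41, RpS7, RpL37A, oho23B, Qm, mod and dm, with those named in counts) were chosen after their values were seen. From the translation lists, oho23B was moved out because it encodes a ribosomal protein, and pes and nito because they are not known to act in ribosome biogenesis. All 84 symbols matched a Release 6 gene annotation, which is newer than dm3. It was used only for names, chromosome, gene order, exon length, exon overlaps with other genes and small nucleolar RNAs in introns. No sequences or coordinates are given. The values of 1 member are not reported here, and it is not drawn in the plot of levels by library.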

Additional observations from a re-analysis of the deposited data

How the results depend on the processing

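The direction of the median difference from wild type was the same in loss of function, 2-deletion and gain of function under every scaling, filter, tool and left-out library, while the number of called genes was not. Against wild type, the count for the mean of both loss-of-function genotypes, 2-deletion and gain of function was 4, 5 and 8 without the filter on low counts, and 0 in each at an adjusted p of 0.01. With only the groups of the comparison in the fit it was 7, 10 and 0, DESeq2's Wald test gave 1 for loss of function, and limma-voom gave 5 for gain of function. The share of all genes called under each alternative is not given here. The counts of called genes in this paragraph therefore describe the settings and are not read as a result about the ribosomal protein genes. Leaving out 1 library at a time, the counts ranged from 0 to 7 in loss of function, 0 to 1 in deficiency, 0 to 8 in 2-deletion and 0 to 9 in gain of function. The medians ranged from -0.28 to -0.13 in loss of function, -0.12 to 0.003 in deficiency, -0.48 to -0.22 in 2-deletion and -0.50 to -0.18 in gain of function. Deficiency against 2-deletion ranged from 0.18 to 0.42 and loss against gain of function from -0.059 to 0.25. Without small RNA genes, as taken by symbol above, the mean share of counts was 4.26% in deficiency, 3.64% in 2-deletion, 3.84% in gain-of-function, against 4.37% in wild-type libraries. The gain-of-function libraries then overlapped the wild-type ones, at 4.15% and 3.52% against 4.13% and 4.61%. The cause of these changes was not tested, beyond the fewer libraries of the fits that leave some out. Of 468 values of single genes under alternatives, 403 kept their call and direction, 47 lost the call, 16 gained it and 2 changed sign: leaving out 1 library at a time, the log2 difference in 2-deletion heads ranged from -0.037 (without 2-deletion replicate 2) to 0.34 for RpS29, and from -0.0026 (without wild-type replicate 1) to 0.15 for RpS23. The replicate numbers do not pair the libraries by the labels, and deviations of same-numbered libraries correlated between -0.04 and 0.17 over all genes and between -0.08 and 0.29 over the ribosomal protein genes. With the replicate number as a block, the called genes were 2 in loss of function, 0 in deficiency, 2 in 2-deletion and 4 in gain of function (RpL28 added), with medians of -0.21, -0.07, -0.36 and -0.31, and the block changed no other call. With 716027 to 1302855 counts in a library, the low-level genes rest on few counts.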
